A study of Mus musculus with 4 samples.

Results

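A mixed lineage leukemia was compared with a leukemia typed as proB acute lymphoblastic leukemia (proB ALL), both taken from the bone marrow of diseased mice. The comparison used 2 of the 4 arrays of the study, with 1 array a side. Both leukemias grew from transduced stem or precursor cells of the blood. These carried MLL-AF4 and AF4-MLL in the mixed lineage leukemia, and only AF4-MLL in the proB ALL. The fusions and the immunophenotype therefore differed together, and their parts in any difference cannot be told apart. Per the labels, marrow was taken from moribund C57BL6 mice some months later and typed by flow cytometry without sorting. The number of mice behind an array and the share of leukemic cells in each marrow are not stated in the labels. A biphenotypic leukemia of B and T type with AF4-MLL alone, labelled B/T BAL, and normal bone marrow, with 1 array each, are given as context. Of 45101 probe sets, 34945 carried 1 gene symbol, standing for 18193 genes. The 13084 genes above the floor on at least 1 of the 2 arrays were compared.

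The translocation that joins MLL (Kmt2a, a histone methyltransferase) to AF4 (Aff1, a factor of transcription elongation) makes a fusion protein from each of the rearranged chromosomes. MLL-AF4 keeps the chromatin-binding end of MLL and AF4-MLL keeps its methyltransferase end. In patients the translocation is typical of infant leukemia of early B-cell type, and such leukemias can also carry or gain myeloid features. Neutrophils and monocytes are myeloid cells that kill microbes with granule proteins and oxidants. Natural killer (NK) cells and cytotoxic T cells kill target cells with granzymes and perforin.

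Signals were MAS5 signals on a linear scale, and differences are of log2(signal + 51.5), mixed lineage leukemia minus proB ALL. The pseudocount of 51.5 is the 25th percentile of all signals and the floor of 189 is their median. A gene is called higher or lower where its log2 difference reaches 1 in size, a 2-fold change. With 1 array a side there is no replicate error and no test. A gene below the floor on one array entered only through the other, so counts of called genes describe these arrays and test nothing. In whole marrow, fewer cells of a type and less RNA per cell cannot be told apart.

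The label proB ALL was set against the markers of early B cells. Of 10 B-lineage markers 4 lay above the floor on the mixed lineage array and 3 on the proB ALL array, beside 9 in normal marrow and 6 for B/T BAL. The 3 of proB ALL were Cd79b at 2484, Blnk at 441 and Cd79a at 426. Vpreb1 had 30.1, Igll1 64.6, Pax5 99.2, Ebf1 128, Dntt 82.8 and Rag1 1.76 on that array, all below the floor. Of 7 NK markers 3 lay above the floor on the mixed lineage array and all 7 on the proB ALL array, with summed signals of 10186 in mixed lineage leukemia and 126120 in proB ALL. Of 7 T-lineage markers 4 lay above it on the mixed lineage array and 3 on the proB ALL array, where Cd3d had 12582, Cd3g 3290 and Bcl11b 231, while Cd3e had 32.3. Ighm, the heavy chain of immunoglobulin M, is not among these markers and was bright on every array, with 9162 in mixed lineage leukemia and 21174 in proB ALL beside 40104 in normal marrow and 19421 for B/T BAL. The name proB ALL is kept as the label, although most B-lineage markers of the list lay below the floor on that array. All 6 neutrophil markers were above the floor on both arrays, with a sum of 468030 on the mixed lineage array and 78266 on the proB ALL array. Of 6 monocyte markers, 6 were above it on the mixed lineage array and 5 on the proB ALL array, with sums of 78531 and 18487.

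Higher calls outnumbered lower ones. Of the 13084 genes, 3758 (28.7%) were at least 2-fold higher in mixed lineage leukemia and 2136 (16.3%) at least 2-fold lower, 45% in all. The counts of the gene lists below are to be read beside these shares. At 4-fold, 1499 genes (11.5%) were higher and 648 (4.95%) lower. The median log2 difference was 0.20, with quartiles of -0.63 and 1.19. Dim genes made up most of the surplus. Of the 3758 higher genes, 2511 (66.8%) lay at or below the floor on the proB ALL array, and of the 2136 lower genes 597 (27.9%) lay at or below it on the mixed lineage array. Among genes above the floor on both arrays the order turned, with 1247 higher and 1539 lower. The dimmest signals were brighter on the mixed lineage array, whose 2nd percentile was 20.4 against 2.88 on the proB ALL array, and 57.4% of its probe sets exceeded the floor, against 46.4%. With the genes split into 5 groups of equal size by their mean signal, 74.9% of the dimmest group were higher and 7.83% lower, and 13.8% of the brightest group were higher and 12.3% lower. With the brighter signal required to exceed 899, the 75th percentile of all signals, 7715 genes were left, of which 1260 (16.3%) were higher and 1542 (20%) lower.

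**Figure D1:**
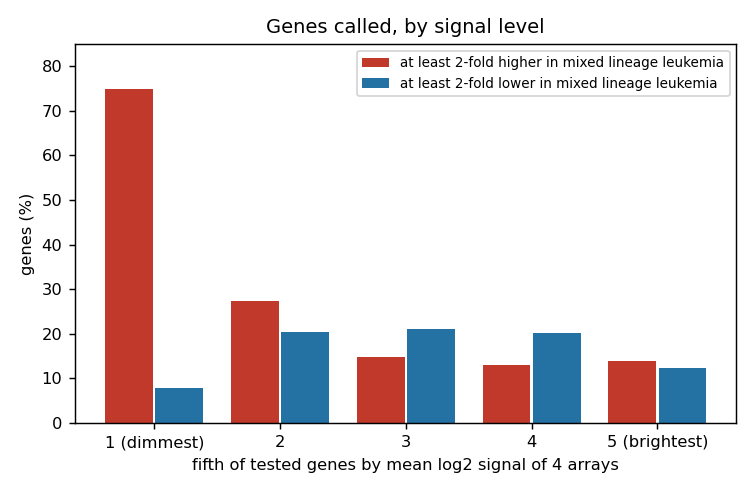
Share of tested genes (%) called at least 2-fold higher or lower in mixed lineage leukemia than in proB ALL, in 5 equal groups of genes ordered by mean log2 signal over the 4 arrays. Higher calls take 74.9% of the dimmest group and 13.8% of the brightest, where lower calls take 12.3%.

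**Figure D2:**
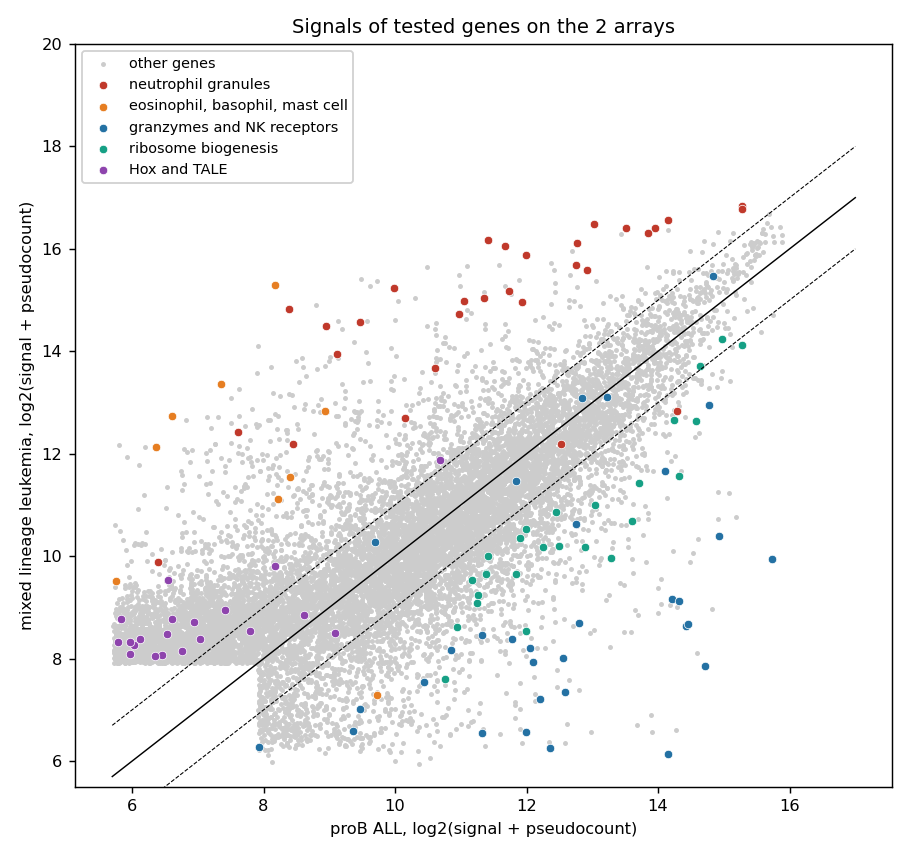
Each point is 1 of the 13084 tested genes, by its log2(signal + 51.5) on the mixed lineage array (vertical) and the proB ALL array (horizontal), with genes of 5 groups in colour. The solid line marks equal signals and the dashed lines a 2-fold change. Most neutrophil granule genes and most eosinophil, basophil and mast cell genes lie above the lines, most killer-cell and ribosome biogenesis genes lie below them, and most Hox genes lie at the dim end.

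The only error the arrays hold is the spread between probe sets of 1 gene. It was 0.87 on the log2 scale (pooled SD) over 5832 genes with at least 2 probe sets above the floor, and the median SD of a gene was 0.54. Of the 2054 called genes among them, 1603 (78.0%) had all probe sets in the same direction and 1102 (53.7%) had all at least 2-fold that way. In 321 genes probe sets differed at least 2-fold in opposite directions. Most log2 differences below come from the brightest probe set of a gene, so this spread is only a rough guide to their uncertainty. None carries a measure of variation between leukemias.

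The 15 genes furthest higher in mixed lineage leukemia were led by products of basophils and of neutrophil precursors. Mcpt8, a protease of mouse basophils, had a signal of 39892 in mixed lineage leukemia and 238 in proB ALL, a 168-fold difference, with 1478 for B/T BAL and 9174 in normal marrow. Fcnb, a ficolin of neutrophil precursors, had 29035 and 285, and Olfm4, a granule glycoprotein of a neutrophil subset, had 17592 and 190. Mcemp1, a membrane protein of myeloid cells, had 30430 against 395. Trem3, an activating receptor of myeloid cells, had 42612 against 792. The proB ALL array was the lowest of the 4 for each of these 5 genes, and the mixed lineage array the highest. Cldn1, a tight junction protein, had 4547 against 4.58, and Ncam1, a neural and NK-cell adhesion molecule, had 3865 against 8.93, at least 20.4-fold. Mouse NK cells lack Ncam1, unlike human ones. Of its 7 probe sets 6 were above the floor on the mixed lineage array, with log2 differences of 2.12 to 6.02. Of the 4 probe sets of Cldn1, 2 were measured and 2 were below the floor on both arrays. Fbp1, an enzyme of glucose synthesis, had 6457 against 62.0, and F5, coagulation factor V, had 12189 against 188. Trp53inp2, an autophagy protein, had 4469 against 21.6, and Tmem45a2, a membrane protein, had 3452 against 17.7.

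The 15 genes furthest lower were largely products of killer lymphocytes. Serpinb6b, an inhibitor of granzymes, had 19.0 in mixed lineage leukemia and 18117 in proB ALL, at least 95.8-fold lower. Il2rb, the receptor chain shared by interleukin 2 and interleukin 15, had 43.0 against 15343, and its other probe set had 42.1 against 3185. Eomes, a T-box factor of killer lymphocytes, had 67.4 against 15148. For each of these genes the proB ALL array was the brightest. Normal marrow reached 2055, 814 and 641, and B/T BAL 2197, 438 and 127. For Serpinb6b the mixed lineage array also stood apart, as the only array below the floor. Pim2, a survival kinase of blood cells, had 52.3 against 13072. Ctsw, a protease of killer cells, had 224 against 24654. Clnk, an adaptor of immunoreceptor signalling, had 31.2 against 5133. Cd163l1, a scavenger receptor of gamma-delta T cells in mice, had 45.9 against 19681, and B/T BAL had 13017. Drc1, a protein of motile cilia, had 29.9 against 6074, and Ddc, the decarboxylase of dopamine and serotonin synthesis, had 54.0 against 6216.

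**Figure D3:**
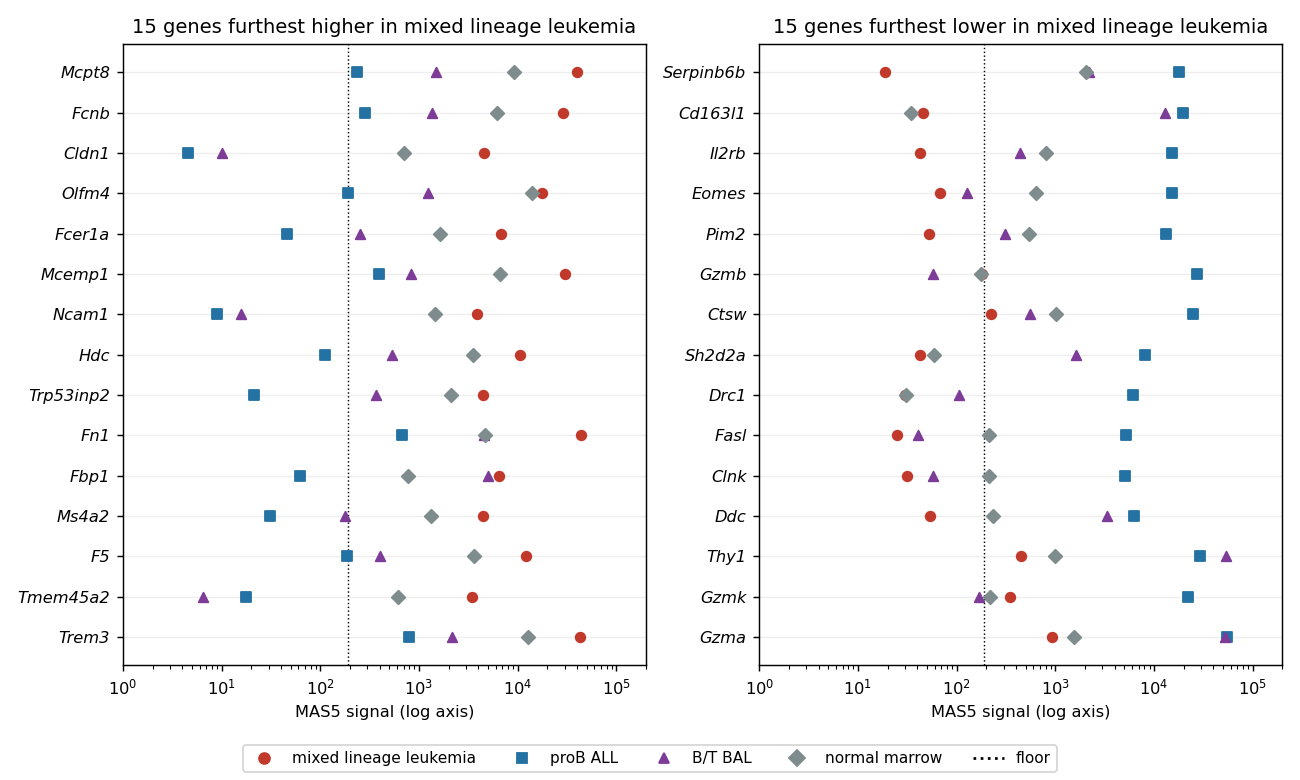
MAS5 signals on all 4 arrays (log axis) of the 15 genes furthest higher and the 15 furthest lower in mixed lineage leukemia against proB ALL. Each point is 1 array and the dotted line is the floor of 189. Normal marrow lies between mixed lineage leukemia and proB ALL for all 15 higher genes.

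Neutrophil granule genes were higher in mixed lineage leukemia almost without exception. Of 12 tested genes of early granules 10 were higher and 1 lower, with a median log2 difference of 3.24. Mpo, the peroxidase of primary granules, had 60520 in mixed lineage leukemia and 4035 in proB ALL, with 12934 for B/T BAL and 43969 in normal marrow. Elane, neutrophil elastase, had 32120 and 2058, with 2699 and 20277 on the other two arrays. For both genes the mixed lineage array was the brightest and the proB ALL array the dimmest. Igsf6, a membrane protein of myeloid cells, had 15812 against 504. Calr, a chaperone of the endoplasmic reticulum counted in this list for its part in Mpo folding, was the 1 lower gene, with 7251 against 20026. Cst7, a protease inhibitor made by neutrophils and by killer cells, had 4652 and 5848.

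All 18 tested genes of late granules and the neutrophil surface were higher, with a median of 3.48, and all 20 of their measured probe sets were higher too. Itgb2l, an integrin-like protein, had 22935 in mixed lineage leukemia and 443 in proB ALL. Its mean over probe sets gave a log2 difference of 2.14 in place of 5.54. Cd177, a neutrophil surface protein, had 38589 against 965, and Mmp8, the neutrophil collagenase, had 24204 against 658. Padi4, the enzyme that citrullinates histones in neutrophil extracellular traps, had 5455 against 144. The smallest differences were those of the brightest genes, S100a8 and S100a9, the calprotectin subunits. They had 117723 and 112499 in mixed lineage leukemia and 39668 and 39840 in proB ALL, a log2 difference of 1.57 for S100a8.

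Promoters of these genes were read from RefSeq (GRCm38.p6) as windows of 250 bases before to 50 after each start. The 4 shown are of named genes of the neutrophil lists and were picked because they hold a match. Named genes further apart than Elane and Mpo, such as Itgb2l and Cd177, are not shown. The 250 bases before the start are printed on the strand of the gene, with matches in capitals to GAGGAAGT, a site of the myeloid factor PU.1, or TTGCNNAA, a site of the C/EBP factors, on either strand. Elane lies at chr10:79886062-79886311 (plus strand) and Mpo at chr11:87793534-87793783 (plus strand), each with 1 PU.1 match. Mmp8 lies at chr9:7558179-7558428 (plus strand) with 1 match of each kind, and Fcnb at chr2:28084879-28085128 (minus strand) with 2 C/EBP matches.
Elane: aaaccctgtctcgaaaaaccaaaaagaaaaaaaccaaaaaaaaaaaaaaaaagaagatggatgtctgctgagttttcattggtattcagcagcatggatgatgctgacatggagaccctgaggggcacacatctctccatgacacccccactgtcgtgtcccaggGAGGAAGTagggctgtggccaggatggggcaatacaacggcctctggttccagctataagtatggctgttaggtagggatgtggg
Mpo: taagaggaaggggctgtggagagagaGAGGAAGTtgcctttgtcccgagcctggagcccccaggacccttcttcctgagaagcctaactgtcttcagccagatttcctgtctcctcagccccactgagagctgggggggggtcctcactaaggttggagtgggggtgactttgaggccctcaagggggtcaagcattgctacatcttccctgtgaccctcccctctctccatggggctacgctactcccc
Mmp8: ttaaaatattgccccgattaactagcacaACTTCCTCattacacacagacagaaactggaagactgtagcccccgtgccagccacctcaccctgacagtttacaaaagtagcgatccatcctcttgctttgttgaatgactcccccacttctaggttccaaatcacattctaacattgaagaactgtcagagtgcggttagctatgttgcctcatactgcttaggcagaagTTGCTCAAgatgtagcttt
Fcnb: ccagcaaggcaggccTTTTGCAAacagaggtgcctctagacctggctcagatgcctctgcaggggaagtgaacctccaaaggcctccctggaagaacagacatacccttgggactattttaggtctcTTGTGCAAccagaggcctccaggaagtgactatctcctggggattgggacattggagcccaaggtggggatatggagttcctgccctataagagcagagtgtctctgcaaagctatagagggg

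The PU.1 letters stood in 6 of 27 promoters of the neutrophil lists (22.2%) and in 3.20% of all 32851 promoters. The C/EBP letters stood in 9 of 27 (33.3%) and in 10.8% of all. The PU.1 letters were also in 4 of 25 promoters of the ribosome biogenesis factors (16%), which were mostly lower, so their share was not high in the neutrophil lists alone. Neither motif contains the other, though adjoining matches can share a base at their ends. Over all genes at least 4-fold higher, the shares were 3.57% and 11.0% of 1456 promoters, beside 3.17% and 8.87% of the promoters of all tested genes. Such matches describe letters in a window and are no evidence of binding. Spi1, the gene of PU.1, had 7257 in mixed lineage leukemia and 612 in proB ALL, and Cebpa, a C/EBP factor of granulocyte precursors, had 3786 against 407.

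Other myeloid transcription factors followed the same direction, with 11 of 17 higher, 1 lower and a median of 2.38. Nfe2, a factor of platelet precursors and myeloid cells, had 13334 in mixed lineage leukemia and 439 in proB ALL. Klf4, a factor of monocytes, had 7885 against 403. Cebpd, a C/EBP factor of the acute phase, had 10712 against 682, and Hlx, a homeobox factor of blood cells, had 2070 against 137. The lower one was Maf, a factor of macrophages and T cells, with 747 against 1717, and its mean over probe sets was -0.17. Irf8, a factor of monocytes and dendritic cells, had 6631 and 5789, and Id2, a factor of innate lymphocytes and dendritic cells, had 18047 and 14538.

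Monocyte genes were higher as well. Of 19 tested, 17 were higher and 0 lower, with a median of 2.41. Fn1, fibronectin, had 43413 in mixed lineage leukemia and 666 in proB ALL, with 4538 for B/T BAL and 4677 in normal marrow. F13a1, which crosslinks fibrin, had 39455 against 738, and F10, coagulation factor X, had 5898 against 159. Mgst1, a glutathione transferase of membranes, had 51854 against 2130. The 2 genes under 2-fold were Lpl, lipoprotein lipase, with 2366 and 1178, and Ccr2, the receptor that brings monocytes out of the marrow, with 8925 and 11910. Itgam, the myeloid integrin CD11b, had 4382 against 163, and Csf1r, the receptor of the macrophage growth factor, had 17085 against 5169.

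Genes of resident macrophages split. Of 14 tested, 4 were higher and 5 lower, with a median of -0.62. Their 20 measured probe sets had 8 higher and 7 lower, with a median of -0.16. The complement genes C1qa, C1qb and C1qc, made by tissue macrophages, had 443, 298 and 178 in mixed lineage leukemia against 4106, 2851 and 1570 in proB ALL. Normal marrow was above both, at 6048, 5164 and 5536. Adgre1, the macrophage marker F4/80, lay the other way with 2286 against 465, and Slc40a1, the iron exporter ferroportin, had 10756 against 2608. Dendritic cell genes had 1 higher and 4 lower of 11, with a median of -0.68. Itgax, the integrin CD11c, had 675 against 2322, Bst2, a surface protein of plasmacytoid dendritic cells, had 1137 against 3505, and Cd209a, a lectin of dendritic cells, had 964 against 150.

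Among genes of eosinophils, basophils and mast cells, 9 of 14 on the array passed the filter, and 8 of these were higher and 1 lower, with a median of 3.89. The largest were those of basophils and mast cells. Fcer1a and Ms4a2, chains of the high-affinity receptor for immunoglobulin E, had 6821 and 4455 in mixed lineage leukemia against 45.8 and 30.8 in proB ALL. Hdc, which makes histamine, had 10445 against 112, at least 55.2-fold. All 3 were above normal marrow, where they had 1645, 1338 and 3561. Genes of eosinophil granules were far below normal marrow. Prg2 had 2186 against 248, with 43661 in normal marrow. Epx had 156 and 46.3 and Prg3 had 68.9 and 7.15, below the floor on both arrays, where normal marrow had 25742 and 11783. Cma1, a mast cell chymase, was lower with 105 against 793.

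Receptors by which myeloid cells sense antibodies and microbes were higher in number. Of 20 Fc receptors and paired immunoglobulin-like or lectin receptors 19 were higher and 1 lower, with a median of 2.54. Clec5a, a lectin receptor, had 4707 in mixed lineage leukemia and 130 in proB ALL, Clec4d had 3801 against 242, and Pirb, an inhibitory receptor, had 7166 against 620. The 1 lower gene was Clec4n, the lectin receptor dectin-2, with 365 against 923. Toll-like receptors and their signalling genes had 10 of 17 higher and 0 lower, with a median of 1.14. Irak3, an inhibitor of that pathway in monocytes, had 4025 against 153, Tlr13, a receptor for bacterial RNA in mice, had 3936 against 430, and Tlr4, the receptor for endotoxin, had 1124 against 198.

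Of 10 tested genes of the NADPH oxidase and of reactive oxygen, 5 were higher and 1 lower, with a median of 0.93. The oxidase itself was in front: Ncf1, Cybb and Ncf4 had 42903, 63754 and 32688 in mixed lineage leukemia against 3717, 6538 and 6382 in proB ALL. Sod2, the mitochondrial superoxide dismutase, was lower, with 3921 against 7968, just past 2-fold, and its log2 difference of -1.01 ranged from -1.22 to -0.40 over the alternatives. Lysosomal genes had 7 of 18 higher and 1 lower, with a median of 0.41. Lamp2, a lysosomal membrane protein, had 24081 against 5428, and Ctsd, cathepsin D, had 5539 against 12440.

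Killer-cell genes were lower in mixed lineage leukemia. Of 18 genes of granzymes, perforin and granule proteins on the array 14 passed the filter, of which 11 were lower and 0 higher, with a median of -2.84. Gzmb, granzyme B, had 179 in mixed lineage leukemia and 26953 in proB ALL, at least 143-fold lower, with 57.8 for B/T BAL and 178 in normal marrow. Fasl, the ligand of the death receptor Fas, had 24.6 against 5173. Gzmk had 347 against 22046. Gzma had 931 against 54327, and here B/T BAL was close to proB ALL with 52157. Prf1, perforin, had 135 against 1344. Srgn, the granule proteoglycan that myeloid cells also store, had 45527 and 29137, and Rab27a, which moves granules in both cell kinds, had 8790 and 9555.

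Of 22 NK receptor genes on the array 18 passed the filter, 16 of them lower and 0 higher, with a median of -4.13. Over probe sets 26 of 28 were lower. Ncr1, the NK receptor NKp46, had 96.9 in mixed lineage leukemia and 4694 in proB ALL, with 139 for B/T BAL and 251 in normal marrow. Cd96 and Cd160, receptors of NK and T cells, had 44.0 and 113 against 4003 and 6097. Klrc1, the inhibitory receptor NKG2A, had 511 against 20421, and Klrk1, the activating receptor NKG2D, had 521 against 19005. The Klra genes are near copies of each other whose probe sets may share signal. Hcst, the adaptor DAP10 of NK and myeloid cells, had 8659 and 7331, and Klra17, a member with expression outside NK cells, had 1199 and 777.

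Transcription factors of killer lymphocytes were split, with 9 of 18 lower and 3 higher and a median of -1.06. Behind Eomes came Tbx21, the T-box factor T-bet, with 93.7 in mixed lineage leukemia and 4410 in proB ALL. Ikzf3, an Ikaros family factor of lymphocytes, had 845 against 7333. Irf4, a factor of activated lymphocytes, had 38.3 against 496, though the mean over its probe sets was -0.46. Zeb2, a factor of mature NK cells and of myeloid cells, lay the other way with 1345 against 307, and Ikzf2 had 723 against 198. Over probe sets the list had 14 lower and 12 higher of 37. Runx3, a factor of NK cells and CD8 T cells, had 1054 against 3235.

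The promoters of Gzmb, a leading granzyme, and Ncr1, the defining NK receptor, were picked because they hold a match. Capitals mark TGTGGT, the core of RUNX sites, on either strand, which neither contains nor lies within the other motifs searched. Gzmb lies at chr14:56262335-56262584 (minus strand) and Ncr1 at chr7:4337465-4337714 (plus strand), and each holds 2 matches.
Gzmb: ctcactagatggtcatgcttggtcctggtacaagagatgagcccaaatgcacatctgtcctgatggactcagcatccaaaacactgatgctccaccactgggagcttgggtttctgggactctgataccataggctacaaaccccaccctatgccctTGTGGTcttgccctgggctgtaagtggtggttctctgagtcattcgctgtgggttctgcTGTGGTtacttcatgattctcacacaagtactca
Ncr1: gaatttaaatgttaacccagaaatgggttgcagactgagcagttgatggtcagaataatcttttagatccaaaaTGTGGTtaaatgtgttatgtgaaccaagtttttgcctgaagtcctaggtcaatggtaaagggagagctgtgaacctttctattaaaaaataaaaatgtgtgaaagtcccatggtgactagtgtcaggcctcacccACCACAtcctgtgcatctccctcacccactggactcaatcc

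The RUNX letters stood in 18 of 37 promoters of the granzyme and NK receptor lists (48.6%), belonging to 16 of 28 genes, and in 16.8% of all promoters. In the neutrophil lists they stood in 7 of 27 promoters (25.9%). Over all genes at least 4-fold lower the share was 15.7% of 670 promoters, beside 13.1% for all tested genes. AGGTGTGA, a T-box site, stood in 2 of the 37 killer promoters (5.41%) and in 1.28% of all. GAGGAAGT stood in 0 of the 37, and TTGCNNAA in 8 (21.6%). Genes with several starts count more than once in these shares.

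Receptors and signalling genes of interleukins 2, 7 and 15 had 13 of 21 lower and 1 higher, with a median of -1.42. Besides Il2rb, Socs2, an inhibitor of cytokine signalling, had 314 in mixed lineage leukemia and 12227 in proB ALL. Il18r1, a receptor chain for interleukin 18, had 1020 against 23633, and Il2ra, the high-affinity chain for interleukin 2, had 117 against 1882. Il7r, the receptor of interleukin 7, had 1642 against 13196 and B/T BAL had 8906. The 1 higher gene was a ligand, Il15, with 624 against 88.0.

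Most T-cell receptor genes that passed the filter were lower. Of 18 genes of the CD3 complex, pre-T receptor and coreceptors on the array 13 passed the filter, 10 of them lower and 0 higher, with a median of -3.95. Thy1, a surface protein of T cells and other lymphocytes, had 453 in mixed lineage leukemia and 28959 in proB ALL, with 54065 in B/T BAL. Cd247, the zeta chain shared by the T-cell receptor and NK receptors, had 78.2 against 3788, and its mean over probe sets was -1.94. Trat1 and Cd27, membrane proteins of T cells and NK cells, had 27.2 and 54.3 against 1588 and 2000. Cd3e, the core CD3 chain, had 43.8 and 32.3 and Ptcra, the pre-T receptor chain, 115 and 114, below the floor on both arrays, while B/T BAL had 11474 and 7093. Cd8a and Cd5, with 258 and 240 in mixed lineage leukemia and 135 and 128 in proB ALL, had the higher signal in mixed lineage leukemia but were under 2-fold apart. Other probe sets of Cd8a lay on both sides, with 542 against 79.5 and 57.5 against 203.

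Signalling genes just under the T-cell receptor, many of them shared with NK cells, had 13 of 16 lower and 0 higher, with a median of -2.75. Sh2d2a, an adaptor of T cells, had 43.0 in mixed lineage leukemia and 8057 in proB ALL. Sh2d1a, the adaptor SAP, had 116 against 7061, Prkcq, protein kinase C theta, had 247 against 9828, and Lat, a membrane adaptor, had 106 against 4436. T-lineage transcription factors had fewer calls, with 5 of 13 lower, 0 higher and a median of -0.62. Nrarp, a target and inhibitor of Notch, had 212 against 4042 and Lef1, a factor of developing lymphocytes, had 222 against 3199. Bcl11b, the T-commitment factor, had 370 and 231, and Dtx1, a Notch target, 409 and 257, where B/T BAL had 9352 and 15724.

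B-cell genes lay on both sides. Of 26 early B-cell genes on the array 19 passed the filter, with 7 higher, 6 lower and a median of 0.23. The higher ones were led by Cd24a, which coats precursors of B cells and neutrophils, with 52736 in mixed lineage leukemia and 3017 in proB ALL, and Bst1, a surface enzyme of pre-B cells and myeloid cells, with 2035 against 233. The lower ones were led by Ikzf3 and Il7r, given above. Cd79a, a chain of the B-cell receptor, had 994 against 426. Vpreb1 and Pax5 were below the floor on both arrays, at 97.3 and 118 in mixed lineage leukemia. Ebf1 was below it by the probe set that stood for the gene, with 138 and 128. Of its 5 probe sets 2 exceeded the floor in mixed lineage leukemia, at 344 and 199, where proB ALL had 77.4 and 24.1.

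Mature B-cell genes had 6 of 18 higher and 3 lower, with a median of 0.65. Among all tested genes 28.7% were higher and 16.3% lower. Fcmr, the receptor for immunoglobulin M, had 1559 in mixed lineage leukemia and 172 in proB ALL, and Ms4a1, the antigen CD20, had 2746 against 721, both under the normal marrow levels of 3024 and 5634. Cr2, complement receptor 2, had 411 against 42.5, and its log2 difference of 2.30 became 0.94 with signals raised to the floor. Cd72, an inhibitory receptor of B cells, was lower with 528 against 1638. Ighm was lower too, as given above, with a log2 difference of -1.20 that ranged from -1.43 to -0.35 over the alternatives, and its 11 probe sets lay on both sides. Plasma cell genes had 1 of 11 higher and 5 lower, with a median of -0.96. Their 17 measured probe sets had 2 higher and 6 lower, but a median of 0.37. Jchain, which joins immunoglobulin units, had 5382 against 25231. Genes of V(D)J recombination and end joining had 3 of 11 higher and 2 lower, with a median of 0.16. The lower ones, Xrcc5 and Xrcc6, encode the Ku subunits and had 296 and 864 against 2402 and 4252. Dntt, which adds nucleotides at the joins, had 314 against 82.8, where B/T BAL had 11061. Without probe sets marked for cross-hybridisation its log2 difference was 0.51 in place of 1.45.

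**Figure D4:**
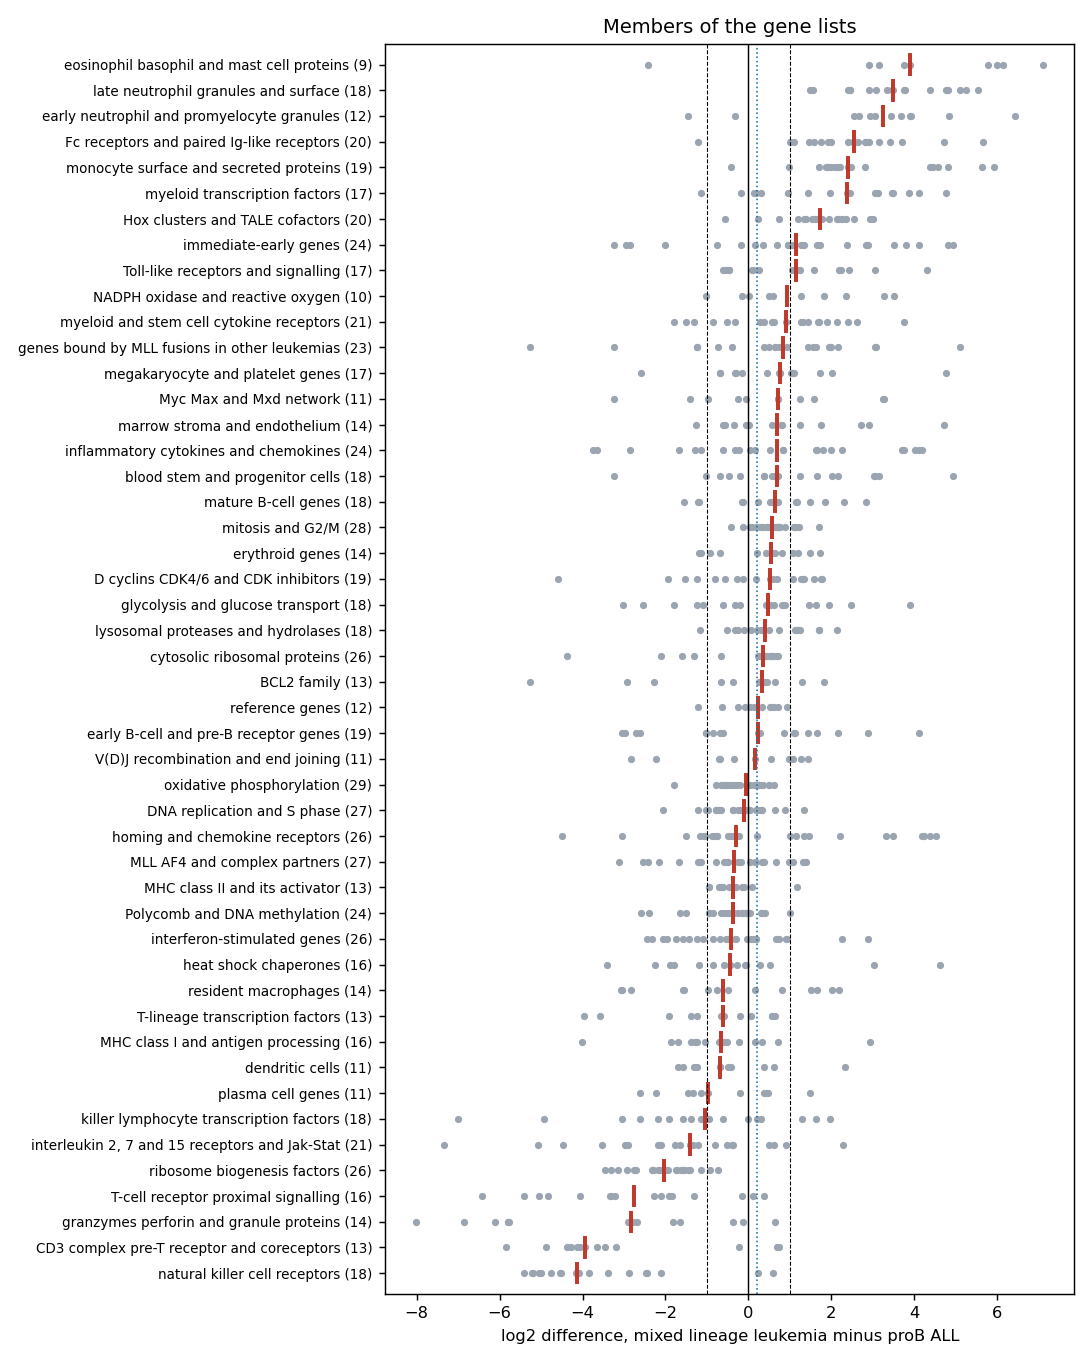
Log2 differences (mixed lineage leukemia minus proB ALL) of the tested members of 48 gene lists, with 1 grey point a gene, the list's median as a red bar and the number of tested members in brackets. Dashed lines mark a 2-fold change and the dotted line the median of all tested genes, 0.20. Medians run from 3.89 for eosinophil, basophil and mast cell genes to -4.13 for NK receptors.

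Hox genes and their TALE cofactors are classic targets of MLL fusions. Of 38 on the array 20 passed the filter, 17 higher and 0 lower, with a median of 1.74, but they were dim. Of the 20, 15 lay in the dimmest of the 5 signal groups of all genes, where 74.9% of genes were higher. Hoxa5 had 695 in mixed lineage leukemia and 42.1 in proB ALL, Hoxa4 had 384 against 5.72, Hoxb13 had 270 against 3.99 and Hoxc5 had 268 against 11.1. The second probe set of Hoxa5 had 58.9 and 48.2, below the floor. Meis1, the cofactor of Hoxa9, had 385 against 45.8, and Hoxa9 itself had 320 and 171. Normal marrow was above both leukemias for Hoxa9, with 743. Over 33 genes of the Hox clusters the brightest had 695 on the mixed lineage array and 490 on the proB ALL array. With dim signals raised to the floor, 4 of the 20 were higher and 0 lower, with a median of 0.55.

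Genes bound by MLL fusions in other leukemias had 10 of 23 higher and 4 lower, with a median of 0.84, and 7 were higher with signals raised to the floor. Prom1, the progenitor marker CD133, had 13201 in mixed lineage leukemia and 335 in proB ALL, with 668 for B/T BAL and 3926 in normal marrow. Lmo2, a stem cell factor, had 5670 against 638. Against these, Bcl2, the inhibitor of cell death, had 462 against 19896, and all 5 of its probe sets were lower, by log2 differences of -1.19 to -5.44. Myc, a driver of growth, had 521 against 5373.

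Kmt2a, the gene of MLL, had 1660 in mixed lineage leukemia and 2869 in proB ALL, and its second probe set had 453 and 1419. Aff1, the gene of AF4, had 5091 against 2004, and its 3 probe sets had log2 differences of 1.32 to 1.57. The positions of these probe sets in the fusions were not used here, so the values do not show which fusion was expressed. Partners of MLL and AF4 had 3 of 27 higher and 8 lower, with a median of -0.36. Aff3, a paralog of Aff1, had 774 against 7086. Mllt6, Mllt1 and Mllt3, which are fused to MLL in other leukemias, had 696, 88.0 and 215 against 4306, 694 and 1133. Of the 3 probe sets of Mllt6 1 lay the other way, with 198 against 90.2, and over the alternatives its log2 difference ranged from -2.75 to -0.83. Polycomb and DNA methylation genes had 0 of 24 higher and 4 lower, with a median of -0.38. The lower ones were Dnmt3b and Dnmt3a, which place new DNA methylation, and Cbx2 and Cbx8, subunits of Polycomb complex PRC1. Dnmt3b had 654 against 4183 and Dnmt3a 920 against 2718. Ezh2, the Polycomb methyltransferase, had 8383 and 8511.

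Stem and progenitor genes had 8 of 18 higher and 2 lower, with a median of 0.68. Erg, an ETS factor of stem cells, had 3214 in mixed lineage leukemia and 55.3 in proB ALL, with 122 for B/T BAL and 1097 in normal marrow. Gata2, a factor of stem cells, mast cells and basophils, had 2925 against 285. Kit, the stem cell factor receptor, had 2061 and 1366, and Cd34 had 244 and 175, close to the floor. Erythroid genes had 4 of 14 higher and 2 lower, with a median of 0.55, beside 28.7% and 16.3% of all tested genes. No higher gene exceeded 332, and normal marrow was far above. Gata1, the erythroid factor, had 332 against 63.8 with 9009 in normal marrow. With signals raised to the floor the counts were 0 higher and 1 lower. Megakaryocyte genes had 7 of 17 higher and 1 lower, with a median of 0.75, and 3 higher and 1 lower with signals raised to the floor.

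Among 14 tested genes of marrow stroma and endothelium 5 were higher and 1 lower, with a median of 0.68. Adipoq, the fat cell hormone adiponectin, had 3663 in mixed lineage leukemia and 89.5 in proB ALL, with 388 for B/T BAL and 1920 in normal marrow. Lepr, the leptin receptor of marrow stroma, had 1521 against 157, and Cxcl12, the stromal chemokine that holds blood cells in the marrow, had 4840 against 699. The matrix genes did not move with them: Col1a1 had 400 and 252, Col1a2 had 826 and 1285, and Col3a1 was lower with 155 against 446. The summed signal of 4 stromal markers (Cxcl12, Col1a1, Col1a2 and Cdh5) was 6128 on the mixed lineage array and 2374 on the proB ALL array, and the part of stromal cells in these differences was not tested.

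Few genes of antigen presentation were higher. MHC class II genes had 1 of 13 higher and 0 lower, with a median of -0.37. The 1 higher gene was the protease Ctss, with 36412 against 16194. H2-Oa and H2-Ob, which restrain peptide loading, had 1883 and 522 in mixed lineage leukemia and 3677 and 1049 in proB ALL. MHC class I genes had 1 of 16 higher and 7 lower, with a median of -0.66. Nlrc5, the activator of class I genes, had 557 in mixed lineage leukemia and 9742 in proB ALL, with 307 in B/T BAL. Erap1, which trims peptides, had 1376 against 5140, and Tap1, the peptide transporter, had 2376 against 7768, though its mean over probe sets was -0.05. B2m, the shared light chain, had 47375 and 38023.

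Interferon-stimulated genes had 2 of 26 higher and 9 lower, with a median of -0.41. Gbp2, a guanylate-binding protein induced by interferon gamma, had 385 in mixed lineage leukemia and 2323 in proB ALL, and Ifit1, an antiviral protein, had 67.0 against 538. Ifitm2 and Ifitm3, membrane proteins also high in myeloid cells, lay the other way with 41063 and 32389 against 5476 and 6715. Ifng, interferon gamma itself, made by killer cells, had 34.5 against 575.

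Immediate-early genes, which respond within minutes to growth factors and stress, had 13 of 24 higher and 4 lower, with a median of 1.16. Fos had 32385 in mixed lineage leukemia and 1007 in proB ALL, with 6099 for B/T BAL and 6749 in normal marrow. Gadd45b, a stress sensor, had 18668 against 613, and Ier3 had 10856 against 734. The lower ones were Myc, Dusp2, Egr3 and Nr4a2, with Dusp2, a phosphatase of activated lymphocytes, at 734 against 6019.

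Heat shock genes had 2 of 16 higher and 5 lower, with a median of -0.44. The stress-inducible Hspa1b had 5983 in mixed lineage leukemia and 192 in proB ALL, and its neighbour copy Hspa1a, which may share signal, had 760 against 48.6. The chaperones Hsph1 and Hspd1 were lower, with 309 and 5081 against 3777 and 24221. Hspd1 folds mitochondrial proteins with Hspe1, which had 5301 against 18360.

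Cytokine and chemokine genes lay on both sides. Of 24 tested, 10 were higher and 6 lower, with a median of 0.68. Cxcl2, a neutrophil attractant, had 1140 in mixed lineage leukemia and 13.6 in proB ALL. Tnf, an inflammatory cytokine, had 5576 against 272 with 106 in normal marrow, and Il6 had 1700 against 78.5. On the lower side, Ccl5, a chemokine of killer cells and T cells, had 2399 against 30823 and Xcl1, a chemokine of NK cells, had 61.8 against 1471.

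Homing and chemokine receptors had 11 of 26 higher and 6 lower, with a median of -0.31. Counted by probe set, 16 of 45 were higher and 11 lower, with a median of 0.14. Fpr2, a formyl peptide receptor of neutrophils, had 45994 in mixed lineage leukemia and 1956 in proB ALL, and C5ar1, the receptor of complement C5a, had 3169 against 119. Cxcr3, a receptor of killer and helper T cells and NK cells, had 699 against 16856, and Ccr6 had 140 against 1536. Cxcr4, the receptor of Cxcl12, had 13733 and 11908. Cytokine receptors of myeloid and stem cells had 10 of 21 higher and 3 lower, with a median of 0.92. Csf3r, the receptor of the granulocyte growth factor, had 4651 against 296, and Csf2rb, the beta chain for interleukin 3 and GM-CSF, had 20156 against 3218. Il10ra, the interleukin 10 receptor, was lower with 503 against 1865, but its mean over probe sets was 0.30.

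Genes of cell death and of the entry into the cycle held single large differences. In the BCL2 family 2 of 13 were higher and 3 lower, with a median of 0.32. Beside Bcl2, the death-promoting members Bbc3 (PUMA) and Bcl2l11 (BIM) were lower, with 94.7 and 2156 in mixed lineage leukemia against 1059 and 10681 in proB ALL. Hrk, another death-promoting member, was higher, with 517 against 110. Among D cyclins, their kinases and inhibitors 7 of 19 were higher and 4 lower, with a median of 0.52. Counted by probe set the balance turned, with 11 of 40 higher, 13 lower and a median of -0.28. Ccnd2, cyclin D2, had 898 against 22847, and 5 of its 7 probe sets were at least 2-fold lower. Ccnd3, cyclin D3, lay the other way with 14061 against 4130 by its brightest probe set, while its other 2 probe sets were lower and the mean of all 3 was -0.54. Cdk4 and Cdk6, the kinases of D cyclins, had 2008 and 6940 against 5863 and 16536, and Cdkn2d, an inhibitor of these kinases, had 14588 against 4255.

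Myc and the genes of ribosome assembly, many of which Myc is known to drive, were both lower. A link between them was not tested. Of 26 ribosome biogenesis genes 24 were lower and 0 higher, with a median of -2.03, and 43 of their 52 measured probe sets were lower and 3 higher. Gnl3 (nucleostemin) had 944 in mixed lineage leukemia and 9905 in proB ALL, with 9581 for B/T BAL and 4277 in normal marrow. Nop56, a core protein of snoRNA particles, had 1601 against 12455, and Rrp9 had 144 against 1679. Noc2l had 319 against 4010 by 1 probe set and 920 against 3072 by the other. For these genes the mixed lineage array lay below the other 3. The 2 members under 2-fold were Npm1, nucleophosmin, with 19317 and 32180, and Nop10, with 13346 and 25448. Split by signal into 5 equal groups of genes, they lie in the brighter 3, where 12.9% to 14.8% of genes were higher and 12.3% to 21.0% lower.

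In the Myc network 4 of 11 were higher and 2 lower, with a median of 0.71. Mxd1 and Mxi1, which oppose Myc at Max, had 9625 and 6295 in mixed lineage leukemia against 951 and 620 in proB ALL, where normal marrow had 11696 and 7817. Mxd3 had 3294 against 1064. Max itself had 2462 and 1486. Mga was lower with 418 against 1186, and its mean over probe sets was -0.33.

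**Figure D5:**
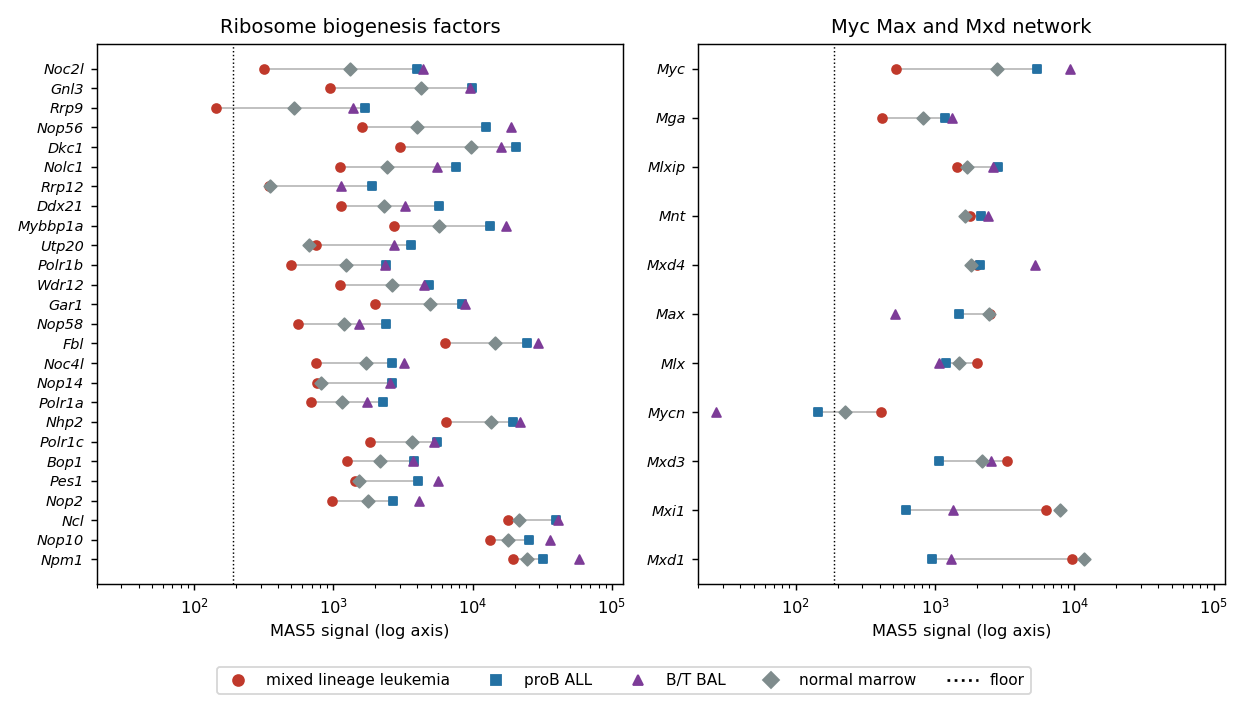
MAS5 signals on the 4 arrays (log axis) of 26 ribosome biogenesis genes and 11 genes of the Myc network, with a grey line joining mixed lineage leukemia and proB ALL. All 26 ribosome biogenesis genes had a lower signal on the mixed lineage array than on the proB ALL array, 24 of them at least 2-fold. Mxd1 and Mxi1 lie the other way.

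Genes of the ribosomal proteins themselves were mostly under 2-fold apart. Of 26 tested genes of cytosolic ribosomal proteins 0 were higher and 4 lower, with a median of 0.36. The 4 lower, Rpl12, Rpl14, Rps25 and Rps6, had 109, 674, 3834 and 3709 in mixed lineage leukemia against 3259, 3084, 11723 and 9217 in proB ALL. Rpl12, Rpl14 and Rps25 rest on 1 probe set each, and Rpl12 lay below the floor in mixed lineage leukemia. Of the 26 genes, 24 were in the brightest of the 5 signal groups. Whether the dim probe sets read these transcripts was not tested. Rplp0, a bright member, had 72361 and 47255. Over the 11 processing alternatives the median of this list ranged from -0.21 to 0.59.

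Most genes of division were under 2-fold apart. S-phase genes had 1 of 27 higher and 3 lower, with a median of -0.11, and G2/M genes had 5 of 28 higher and 0 lower, with a median of 0.56. Mki67, which marks cycling cells, had 21304 in mixed lineage leukemia and 19940 in proB ALL. Rrm2, a subunit that makes deoxynucleotides, had 35855 against 14224, and Ung, which removes uracil from DNA, had 690 against 3020. Cdk1, the mitotic kinase, had 14507 against 4428. Oxidative phosphorylation genes had 0 of 29 higher and 1 lower, with a median of -0.07, the 1 lower gene being Cox7c with 323 against 1240.

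Genes of glycolysis had 5 of 18 higher and 5 lower, beside 28.7% and 16.3% of all tested genes. Their median was 0.47, with isoforms on both sides. Hk3, the hexokinase of myeloid cells, had 15258 in mixed lineage leukemia and 983 in proB ALL, and Ldhb, a lactate dehydrogenase chain, had 2628 against 429. Slc16a1, a lactate carrier, had 1776 against 14764, while its relative Slc16a3 had 719 against 150. Pfkm, the muscle form of phosphofructokinase, had 109 against 890. Ldha, the other lactate dehydrogenase chain, had 24655 and 28403.

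Of 12 reference genes 0 were higher and 1 lower, with a median of 0.23. The 1 lower was Polr2a, the large subunit of RNA polymerase II, with 2315 against 5446, and its other probe set had 261 and 197, so that the log2 difference of -1.22 became -0.44 as the mean over both. Actb had 53647 in mixed lineage leukemia and 36962 in proB ALL. The 3′ to 5′ ratio of its control probe sets, which rises as RNA is degraded or poorly labelled, was 3.10 and 2.47, and that of Gapdh was 1.24 and 1.28. Ptprc, the blood cell antigen CD45, had 36338 and 36839 by its brightest probe set, and 406 against 1975 by the other. The median log2 difference of the autosomes ran from 0.06 on chromosome 5 to 0.35 on chromosome 3. It was 0.37 on the X chromosome and 1.45 over the 5 tested genes of the Y chromosome, 4 of them higher. Xist, a gene of the X chromosome, had 33134 in mixed lineage leukemia and 40587 in proB ALL by its brightest probe set. Its log2 difference of -0.29 ranged from -2.92 to -0.06 over the alternatives. Whether the mice behind the arrays differed in sex was not tested.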

How the data were processed

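Each of 4 mouse arrays had deposited intensity values, linear signals from MAS5 according to the submitters' processing notes. For MAS5 the version and settings were not given in these sources, and detection calls were not used. The deposited signals had a trimmed mean of 1000 on each array (2% removed at each end), and arrays give no read depth, so their number limits the precision. Probe sets were named through the platform annotation and the RefSeq gene table (GRCm38.p6), which held 34741 of the 34945 probe sets with 1 symbol. The 64 control probe sets, the 932 with several symbols and the 9160 unnamed ones were left out. The probe set brightest on average (mean log2 over the 4 arrays) stood for each gene. Folds are ratios of signals, given as "at least" where the dimmer signal lay at or below the floor and was counted at it. Python 3.11.15, numpy 2.4.6 and pandas 2.3.3 were used, and the counting was tested on simulated data.

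The comparison, the 48 gene lists (1010 genes, 897 of them on the array) and the naming rule were chosen with earlier results of these data known. The rule takes the 15 genes furthest each way, up to 4 members of each list with the largest difference, up to 2 members furthest the other way, and a fixed set of lineage and MLL genes. Members named outside it were picked after their values were seen. They are Spi1, Cebpa, Runx3, Irf8, Id2, Lpl, Epx, Prg2, Prg3, S100a8, S100a9, Prf1, Rab27a, Cd3d, Cd3g, Ptcra, Dtx1, Blnk, Igll1, Cd79b, B2m, Ifng, Egr3, Nr4a2, Hspe1, Cxcr4, Ccr6, Cdk4, Cdk6, Max, Npm1, Nop10, Ezh2, Rplp0, Ldha, Slc16a3, Col1a1 and Cdh5. Lists share some members. The alternatives were 2 other pseudocounts, 3 scalings, 3 filters, signals raised to the floor, the mean over probe sets and the removal of probe sets marked for cross-hybridisation.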

Additional observations from a re-analysis of the deposited data

How the results depend on the processing

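The 3758 higher genes became 1260 with the brighter signal required to exceed the 75th percentile of all signals, where 45.0% of called genes were higher against 63.8% as reported, and 1985 with dim signals raised to the floor, where 51.4% were. Under the other 9 alternatives the count of higher genes ran from 2567 to 4739, and under all 11 the count of lower genes ran from 1542 to 2679. The median difference of all genes was 0.46 under scaling to the 75th percentile, 0.09 under quantile normalization and -0.13 with the stricter filter. List medians that took both signs over the alternatives were those of S-phase genes (-0.32 to 0.12), V(D)J genes (-0.31 to 0.42), ribosomal proteins (-0.21 to 0.59), early B-cell genes (-0.06 to 0.46), erythroid genes (-0.80 to 0.75), oxidative phosphorylation (-0.32 to 0.17) and reference genes (-0.07 to 0.46). With the mean over probe sets 3 called genes changed sign, to 0.30 for Il10ra, -0.54 for Ccnd3 and 0.74 for Tyms, and the cause was not tested. Of 216 named genes called, 34 lost the call under at least 1 alternative. Among those given above, the log2 difference nearest 0 was -0.66 for Cbx8, 0.67 for Gata1, 0.86 for Hoxa4, 0.42 for Hoxb13, 0.58 for Hoxc5, 0.86 for Meis1, -0.89 for Col3a1, 0.90 for Ctss, 0.93 for Cd79a, -0.93 for Ctsd and 0.96 for Mxd3. No paired analysis was possible because each group held 1 array. With 1 array a side no array could be left out, and signals near the floor limit what the dim genes show.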
